A study of Mus musculus with 12 samples.

Results

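The genes described here are the kinase gene Sik1, its paralogs Sik2 and Sik3, and 6 further genes of the cAMP pathway, namely Prkacb, Crtc2, Creb1, Crem, Pde4b and Pde4d. They were taken by gene name, as 9 of the 36175 genes measured in B cells of Peyer's patches (PP), the lymphoid follicles of the small intestine. Sik1 was selected on its difference in expression between stroke mice and sham controls, and the other 8 for their place in the same pathway, with results of that comparison known. Their differences between the groups are therefore given as a description, with no test. All 9 genes passed the filter on low values, since none was below 1 in any mouse.

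Signalling through cAMP begins when a receptor such as the beta-adrenergic receptor, which binds noradrenaline and adrenaline, activates adenylyl cyclase through the G protein Gs. The cAMP formed releases the catalytic subunits of protein kinase A (PKA), which phosphorylate the transcription factor CREB and inhibit the salt-inducible kinases (SIKs). Active SIKs keep the CREB coactivators of the CRTC family and the class IIa histone deacetylases in the cytoplasm. Sik1 is itself a target gene of CREB, whereas phosphodiesterases of the PDE4 family degrade cAMP. In lymphoid tissue, sympathetic nerves release noradrenaline, and lymphocytes carry receptors for it.

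Bulk RNA-seq was performed on PP B cells of 6 sham controls and 6 stroke mice, labelled sham and brain injury, 18 h after surgery. All were wild-type C57BL/6JHsd males of 10 to 12 weeks, and each library came from 1 mouse. Stroke was induced by closing the middle cerebral artery with a filament for 1 h, and sham controls had the operation without this closure. All mice received the pain relievers buprenorphine and carprofen under the surgical protocol. B cells were isolated magnetically with a B cell kit and then with CD45 beads, a step that further removes epithelial and endothelial cells and for which the methods state a high purity. The values are transcript abundances at gene level, called normalized TPM, which are per transcript length, so that levels of different genes can be set side by side. Read counts, and with them the depth of each library, are unknown.

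The 5 B cell markers were detected in every mouse, and the sum of their normalized TPM ranged from 1354 to 2000 in sham controls and from 1035 to 1812 in stroke mice. The summed epithelial markers ranged from 8.99 to 1375 in sham controls, with the highest sums in sham controls 1 and 2, and from 11.6 to 686 in stroke mice. The summed T cell markers ranged from 34.8 to 99.7 and from 30.7 to 127, and those of neutrophils from 3.75 to 6.34 and from 3.80 to 8.52, with 4 of the 6 neutrophil genes at 0 in some mouse. The markers of follicular B cells summed to between 1186 and 1670 in sham controls and between 412 and 1430 in stroke mice, with the lowest sum in stroke mouse 5, and 2 of 5 were lower at an unadjusted p under 0.05 (limma), compared with 1.69% of all tested genes. These were Cr2 (limma, unadjusted p 0.0156, adjusted p 0.748) and Fcer2a (unadjusted p 0.0498, adjusted p 0.791). Their log2 differences, -0.83 for Cr2 and -0.72 for Fcer2a, were -0.51 and -0.36 without stroke mouse 5. In bulk samples, fewer cells of a type and less RNA per cell cannot be told apart.

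Sik1 encodes the inducible member of the SIK family and lies on the minus strand of chr17:31844250-31855804 (GRCm38). Its level was 18.3 ± 4.96 normalized TPM in sham controls and 36.3 ± 6.05 in stroke mice (SD, n = 6 each). The lowest, median and highest values were 11.0, 19.3 and 24.2 in sham controls and 28.3, 36.0 and 43.4 in stroke mice. Every stroke mouse was above every sham control, and the closest pair was sham control 3 at 24.2 and stroke mouse 6 at 28.3. The spread among mice was wider in proportion to the mean in sham controls, with a coefficient of variation of 27.1% compared with 16.7% in stroke mice. The difference in log2(value + 0.5) was 1.0 (SE 0.19), and it was 0.97 with the epithelial marker score as a covariate and 1.06 without sham controls 1 and 2. The part of follicular markers in this difference was not tested.

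**Figure D1:**
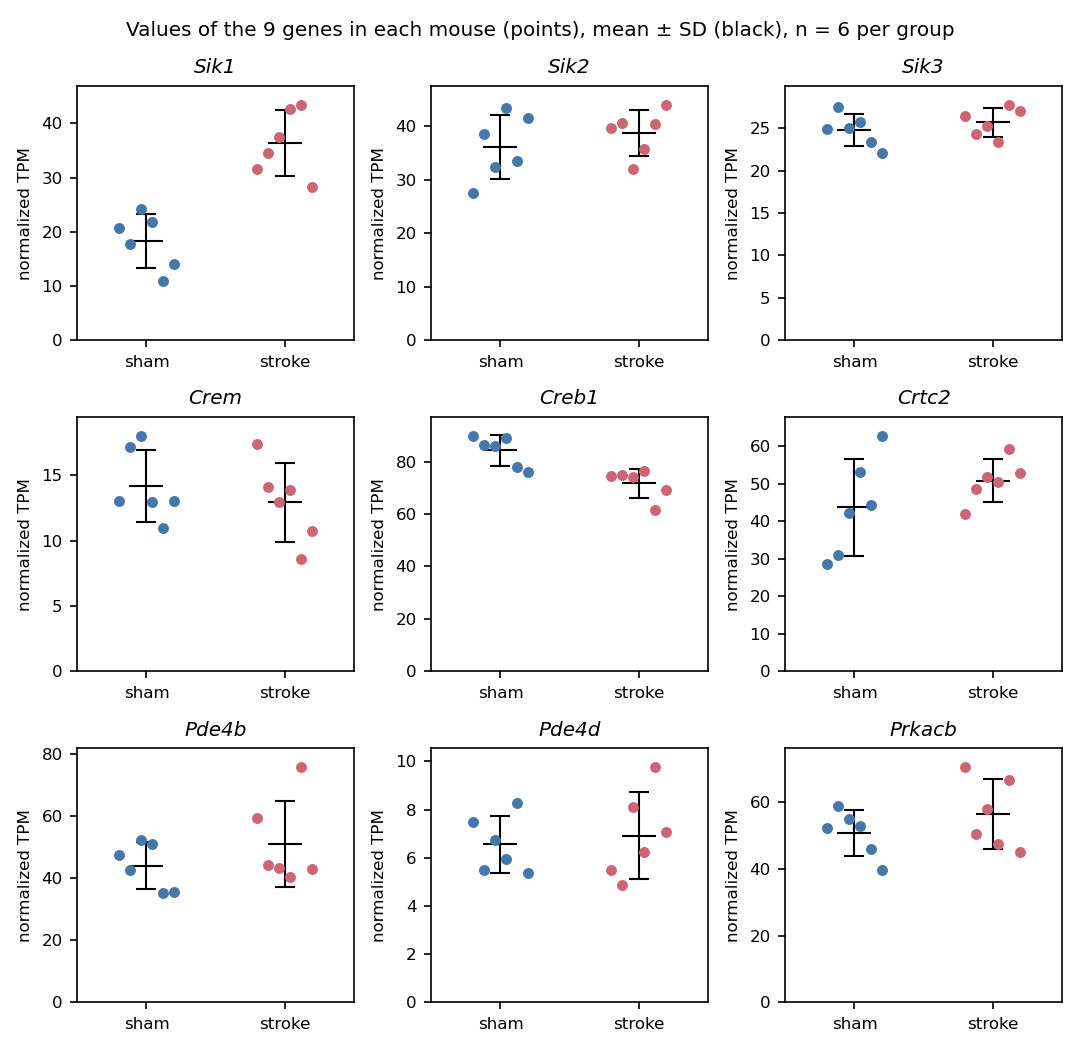
Levels of the 9 genes in each mouse, in normalized TPM on an axis that starts at 0. Each point is 1 mouse, with sham controls and stroke mice side by side, and black lines give the mean ± SD of each group. The Sik1 values of the groups do not overlap, with 24.2 as the highest sham control and 28.3 as the lowest stroke mouse, whereas the groups overlap for the other 8 genes.

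Sik2 and Sik3, which encode the other SIK kinases and lie apart from each other on chromosome 9, overlapped between the groups. The Sik2 values had a minimum of 27.5, a median of 36.1 and a maximum of 43.4 in sham controls and of 31.9, 40.0 and 44.0 in stroke mice (chr9:50892801-51009073, minus strand). The difference was 0.11 on the log2 scale (SE 0.13), and 0.03 without sham control 1, the lowest of all. The Sik3 values had a minimum of 22.01, a median of 24.9 and a maximum of 27.5 in sham controls and of 23.3, 25.9 and 27.7 in stroke mice (chr9:46012820-46224194, plus strand), with a difference of 0.05 (SE 0.10), or 0.02 without sham control 6. Sik3 had the least variable level of the 3 kinases, with an SD of 1.90 in sham controls and 1.68 in stroke mice.

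CREB binds the cAMP response element TGACGTCA or its shorter core TGACG, and the stretches of promoter that hold a core are shown because they are where the factor of this pathway could read the member genes. Promoter windows from 250 bases before to 50 bases after the annotated start were taken from RefSeq (GRCm38.p6) and searched for TGACG and its reverse complement CGTCA, that is on both strands, with overlap between matches allowed. A window was found for 6 of the 9 genes, with 11 windows in all, since Prkacb and Pde4b have several starts. Sik1, Crem and Crtc2 had no window in the set that was searched, which does not mean that they lack an annotated start. Of the 32851 windows in the table, 6837 (20.8%) held a core and 588 (1.79%) the full element. Among the 11 windows of the members, 4 held a core and 0 the full element. The cores are in capitals, on the strand of the gene, 5′ to 3′.
Sik3 promoter, chr9:46012672-46012782, plus strand: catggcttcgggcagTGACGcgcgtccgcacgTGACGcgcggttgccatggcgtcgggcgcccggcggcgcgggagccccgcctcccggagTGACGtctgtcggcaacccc
Sik2 promoter, chr9:51009042-51009089, minus strand: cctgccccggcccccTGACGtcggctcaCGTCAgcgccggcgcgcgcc
Pde4b promoter, chr4:102421506-102421540, plus strand: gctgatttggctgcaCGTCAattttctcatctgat
Prkacb promoter, chr3:146813029-146813063, minus strand: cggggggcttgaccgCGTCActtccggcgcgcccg

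Sik3 held 3 cores, which began 133, 116 and 57 bases before the start. Sik2 held 1 in each orientation, of which the first began 1 base before the start and the second 12 bases after it. The windows of Creb1 and Pde4d held none. Such a match is a run of letters, and no binding was measured here.

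Within the SIK family, the place of Sik1 among its paralogs was not the same in the groups. In all 6 sham controls Sik2 was the highest of the 3 kinases and Sik1 the lowest. In stroke mice Sik1 was the highest in 3 and Sik2 in the other 3, and Sik3 was the lowest in all 6. The summed level of the 3 kinases was 79.2 ± 8.12 normalized TPM in sham controls, between 68.0 and 90.8, and 101 ± 5.82 in stroke mice, between 94.6 and 112 (SD, n = 6 each). Sik1 made up 22.9% ± 5.40 of that sum in sham controls and 36.0% ± 5.06 in stroke mice. The shares ranged from 16.2% to 29.7% and from 28.5% to 42.0%, and therefore overlapped, with sham control 3 above stroke mouse 6. The share of Sik2 was 45.6% ± 5.98 and 38.5% ± 4.07. The share of Sik3 was 31.4% ± 2.74 in sham controls and 25.5% ± 1.73 in stroke mice, and its ranges, from 28.3% to 34.4% and from 22.9% to 27.2%, did not overlap. A share within 1 mouse does not depend on how that library was scaled, but these shares contain the difference in Sik1 itself.

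**Figure D2:**
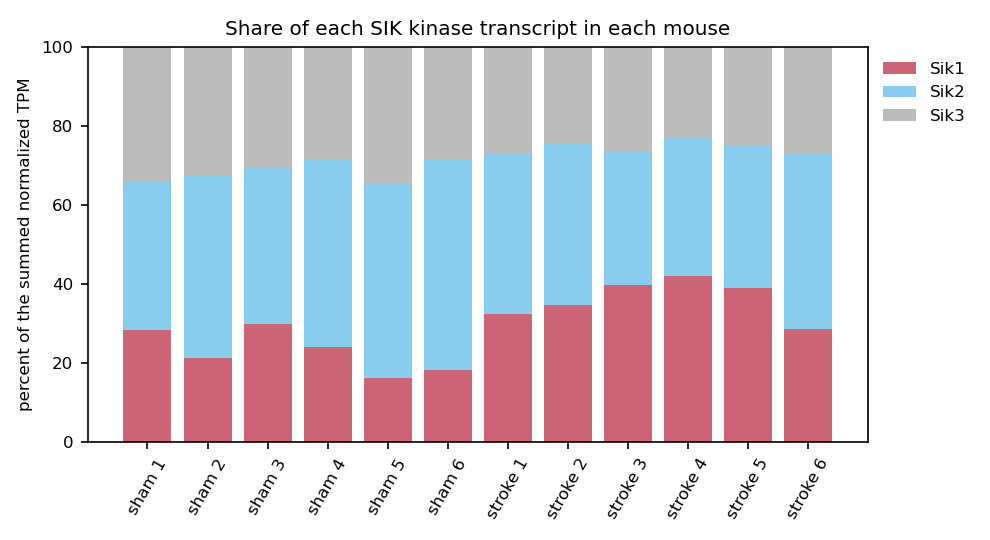
Share of each SIK gene in the summed level of Sik1, Sik2 and Sik3, in percent, for each of the 12 mice. Each bar is 1 mouse and adds up to the whole. The Sik1 part lies between 16.2% and 29.7% in sham controls and between 28.5% and 42.0% in stroke mice.

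Prkacb encodes the beta catalytic subunit of PKA, the kinase that cAMP releases (chr3:146729574-146812990, minus strand). In sham controls its lowest, median and highest values were 39.6, 52.7 and 59.0 normalized TPM, and in stroke mice they were 45.1, 54.3 and 70.6. The highest values were those of stroke mice 1 and 5, and the groups overlapped, with a difference of 0.14 (SE 0.14), or 0.07 without sham control 6, the lowest of all.

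Crtc2 encodes a coactivator that moves to the nucleus and binds CREB when the SIKs are inhibited (chr3:90254163-90264125, plus strand). It had the widest spread in sham controls among the 9 genes relative to its mean, at 43.7 ± 13.0 normalized TPM, compared with 50.8 ± 5.66 in stroke mice (SD, n = 6 each). The sham controls ran from 28.7 to 62.8 with a median of 43.3, and the stroke mice from 41.9 to 59.2 with a median of 51.2. All stroke mice lay within the range of the sham controls. The 2 lowest values, 28.7 and 31.0, were those of sham controls 1 and 2, which also had the highest epithelial marker sums. The difference of 0.26 (SE 0.18) was 0.09 with the epithelial marker score as a covariate and 0.02 without sham controls 1 and 2.

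Creb1, the gene of CREB itself, had the highest level of the 9 genes (chr1:64532645-64604548, plus strand). The lowest, median and highest values were 76.1, 86.2 and 89.8 normalized TPM in sham controls and 61.6, 74.2 and 76.4 in stroke mice. Values of 5 of the 6 stroke mice were below all sham controls, and only stroke mouse 4, at 76.4, was above the lowest sham control. The difference was -0.23 on the log2 scale (SE 0.10), or a ratio of 0.852. When all mice were scaled to the same total, which moved the median difference of all tested genes from 0.01 to 0.13, the difference in Creb1 was -0.11 and that in Sik1 1.13.

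Crem encodes activators and repressors of the same family, among them the inducible repressor ICER from an internal promoter, and the gene level sums these transcripts. It lies on chromosome 18. Its lowest, median and highest values were 11.0, 13.0 and 18.01 normalized TPM in sham controls and 8.56, 13.4 and 17.4 in stroke mice. Of the stroke mice, 2 were below all sham controls and the other 4 within their range. The difference was -0.14 (SE 0.17), and -0.03 without stroke mouse 5, which had the lowest value. Crem made up 14.4% ± 2.16 of the sum of Crem and Creb1 in sham controls and 15.1% ± 2.31 in stroke mice (SD, n = 6 each).

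Pde4b and Pde4d encode 2 of the 4 cAMP-specific enzymes of the PDE4 family. The Pde4b values had a minimum of 35.1, a median of 45.2 and a maximum of 52.4 normalized TPM in sham controls and of 40.5, 43.8 and 75.9 in stroke mice (chr4:102087543-102607259, plus strand). Only stroke mice 1 and 5, at 59.3 and 75.9, were above the highest sham control, and the median of the stroke mice was the lower one although their mean was the higher, at 51.0 compared with 44.1. The difference was 0.19 (SE 0.17), and 0.07 without stroke mouse 5. Pde4d was the lowest of the 9 genes, with values from 5.36 to 8.27 in sham controls and from 4.88 to 9.77 in stroke mice, and medians of 6.36 and 6.64 (chr13:108449948-109953461, plus strand). Its difference was 0.06 (SE 0.17), and -0.05 without stroke mouse 5, which again had the highest value. With sample quality weights, which count mice that stand apart for less, the differences of Pde4b, Pde4d, Prkacb and Sik3 turned negative, at -0.053, -0.072, -0.0059 and -0.016. Of the sum of the 2 PDE4 genes, Pde4b made up 86.8% ± 3.12 in sham controls and 87.8% ± 2.73 in stroke mice.

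**Figure D3:**
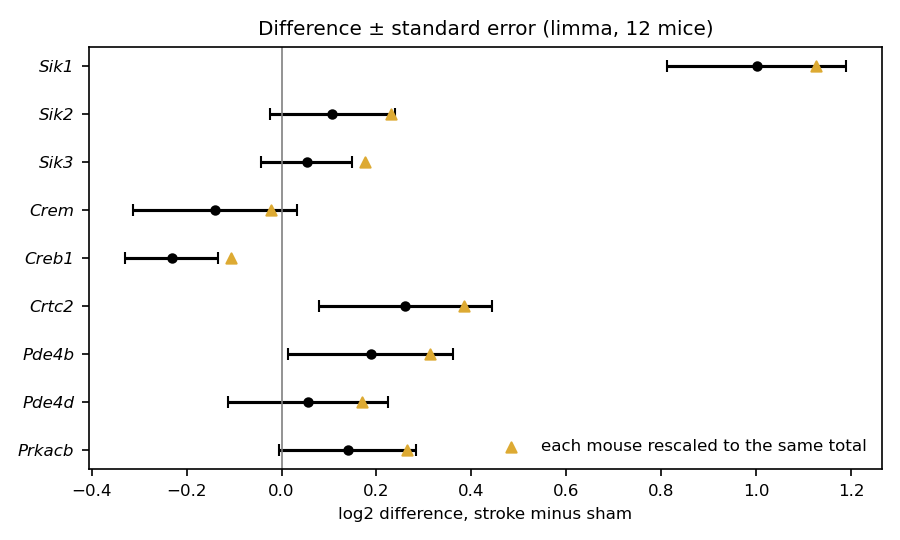
Difference between stroke mice and sham controls in log2(value + 0.5) for the 9 genes, as a point with its standard error from the fit over all 12 mice. Triangles give the difference with all mice scaled to the same total. The line at 0 marks no difference. Sik1 lies at 1.0, Creb1 at -0.23 and the other 7 genes between -0.14 and 0.26.

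Of the 12590 genes that passed the same filter and were tested, 557 were higher and 213 lower in stroke mice at an unadjusted p under 0.05 (limma), which is 4.42% and 1.69%, or 6.12% together. At an adjusted p under 0.05 there were 0 genes (0%), with 0.468 as the smallest Benjamini-Hochberg adjusted p of limma. Of the 9 genes, 2 were within the 6.12%, Sik1 as higher and Creb1 as lower. All stroke mice were above all sham controls in 44 genes (0.349%), of which Sik1 is 1, and below in 11 (0.0874%), of which none is among the 9. Because this comparison chose the genes, nothing is read from these counts.

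The order of the levels was steady at its ends and not in its middle. By the median over 12 mice it ran from Creb1 at 76.2 normalized TPM through Prkacb at 52.7, Crtc2 at 49.6, Pde4b at 43.8, Sik2 at 39.1, Sik1 at 26.3, Sik3 at 25.1 and Crem at 13.0 to Pde4d at 6.49. Creb1 was above Prkacb in 11 of 12 mice, Sik3 above Crem in all 12 and Crem above Pde4d in 11. The neighbours in the middle changed places from mouse to mouse, since Prkacb was above Crtc2 in 8 mice and Crtc2 above Pde4b in 7. Sik1 was above Sik3 in 6 of 12 mice, which were the 6 stroke mice. By the mean over the 12 mice, 61.1% of the tested genes were lower than Sik1, compared with 87.0% for Creb1 and 22.9% for Pde4d.

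Whether Sik1 varied together with the other 8 genes among mice of 1 group was tested on the log2 values after the group means were removed, which does not use the difference between the groups. The highest correlation was with Pde4b, with Pearson's r = 0.59 (exact two-sided permutation p = 0.0340, adjusted over 8 relations p = 0.272) and Spearman's rho = 0.64 (exact p = 0.0385, adjusted p = 0.308). It did not pass the adjustment. Without the 2 mice farthest from the median of Sik1, sham controls 3 and 5, r was 0.47. Within sham controls r was 0.96 and within stroke mice 0.27, and the difference between these was not tested.

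The other relations of Sik1 also did not pass. For Prkacb r was 0.43 (exact p = 0.152, adjusted p = 0.558; rho = 0.44, exact p = 0.154) and for Creb1 it was 0.40 (exact p = 0.209, adjusted p = 0.558; rho = 0.35, exact p = 0.285). Sik3 followed at 0.28 (exact p = 0.434; rho = 0.26, exact p = 0.439), Crem at 0.23 (exact p = 0.470; rho = 0.17, exact p = 0.595), and Pde4d at 0.07 (exact p = 0.808; rho = 0.15, exact p = 0.643). The correlations were negative for Crtc2, at -0.14 (exact p = 0.746; rho = -0.06, exact p = 0.875), and for Sik2, at -0.24 (exact p = 0.528; rho = -0.26, exact p = 0.477). Both turned positive with all mice scaled to the same total, at 0.65 for Crtc2 and 0.55 for Sik2, and r for Crtc2 was also positive under median-of-ratios scaling, at 0.023, and after quantile normalization, at 0.090. The adjusted p of the relations with Sik3, Crem, Pde4d, Crtc2 and Sik2 lay between 0.704 and 0.808. Without sham controls 3 and 5, r was 0.40 for Prkacb, 0.25 for Creb1, 0.16 for Sik3, -0.24 for Crem, 0.47 for Pde4d, -0.15 for Crtc2 and -0.40 for Sik2. Over the other 12589 tested genes, the median r with Sik1 was 0.03, with quartiles of -0.23 and 0.26.

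Some of the relations had another sign in each group. In sham controls r was 0.84 for Creb1, 0.65 for Crem and 0.57 for Sik3, while in stroke mice it was -0.21, -0.31 and -0.29, and for Crtc2 and Pde4d it was -0.28 and -0.22 in sham controls and 0.48 and 0.43 in stroke mice. Prkacb, at 0.67 and 0.20, and Sik2, at -0.14 and -0.51, kept their sign. With 6 mice in each group, these values are a description, and the differences between the groups were not tested. The sham control with the lowest Sik1, mouse 5 at 11.0, was also lowest in Pde4b at 35.1 and in Crem at 11.0, and the control with the highest, mouse 3 at 24.2, was highest in both.

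**Figure D4:**
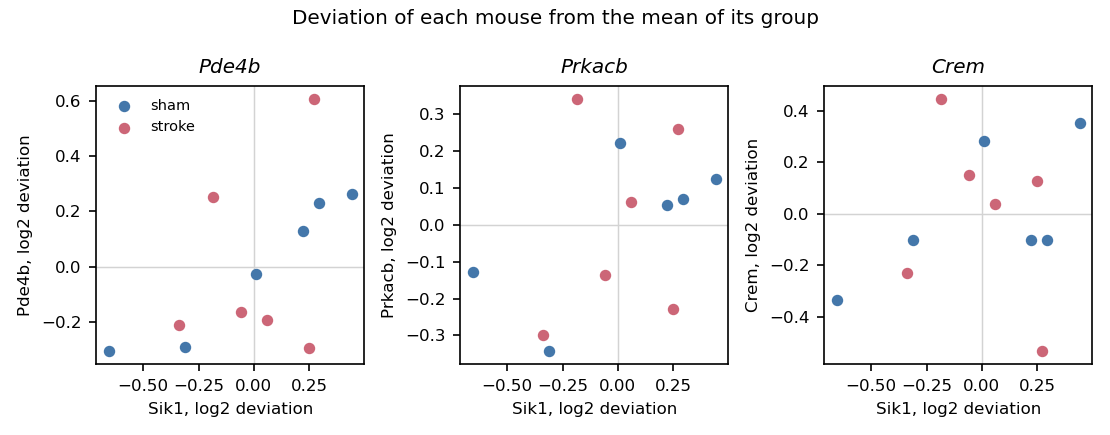
Deviation of each mouse from its group mean on the log2 scale, with Sik1 on the horizontal axis and Pde4b, Prkacb and Crem on the vertical axes. Each point is 1 mouse, coloured by group, and r over the 12 mice is 0.59 for Pde4b, 0.43 for Prkacb and 0.23 for Crem.

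The genes whose log2 values followed Sik1 most closely over all 12 mice were Slc25a53 (Pearson's r 0.95), Zfp36l2 (0.93), Ptpn22 (0.91), E430018J23Rik (0.90) and Arhgef18 (0.90). Each of them was also higher on average in stroke mice, with log2 differences of 0.67, 1.24, 1.80, 0.35 and 0.30, so these values share the difference between the groups. After the group means were removed, the genes near to Sik1 included Bend5 (0.91), Arhgef18 (0.84), St3gal1 (0.83) and Nipsnap2 (0.83) over the same 12 mice. They were picked out of 12589 genes for this value, so it has no p.

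Among the adrenergic receptors, Adrb1, the beta-1 receptor, was at 4.65 ± 0.975 normalized TPM in sham controls and 3.53 ± 1.0 in stroke mice (SD, n = 6 each). Its difference of -0.36 (SE 0.17) had an unadjusted p of 0.0483 and an adjusted p of 0.791 (limma). When 1 mouse was left out, the unadjusted p was above 0.05 in 10 of the 12 cases, all except sham control 6 and stroke mouse 5, and lay between 0.0548 and 0.111 in those. The difference was -0.23 without sham controls 1 and 2.

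Among the other receptors that act through Gs, Adora2a, an adenosine receptor gene, was at 5.06 ± 1.45 in sham controls and 7.39 ± 1.97 in stroke mice, with a difference of 0.51 (SE 0.24, unadjusted limma p 0.0472, adjusted p 0.791). The difference was 0.33 without sham control 1, 0.36 without sham controls 1 and 2 and 0.23 with sample quality weights. The unadjusted p lay between 0.0518 and 0.104 without any 1 of sham controls 1, 5 and 6 and stroke mice 1, 2, 3, 5 and 6. Ptger4, a prostaglandin E2 receptor, was at 10.27 and 10.05, the acid-sensing receptor gene Gpr65 at 6.90 and 7.16, and Vipr1, a receptor for vasoactive intestinal peptide, at 6.68 and 4.78 in sham controls and stroke mice, and none of these 3 had an unadjusted p under 0.05.

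The pathway lists held 111 genes, of which 72 were tested, 63 of them besides the 9 members. Of these 63, 4 were higher and 1 lower in stroke mice at an unadjusted p under 0.05 (limma), near the 4.42% and 1.69% of all tested genes, and 0 passed at an adjusted p under 0.05 (smallest 0.716). The difference was positive in 40 and negative in 23, with a median of 0.07, compared with 0.01 over all tested genes. In none of the 63 did the groups separate completely.

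Between receptor and PKA, no gene had an unadjusted p under 0.05. This covers 6 genes of receptor desensitization, 4 of G protein alpha subunits, 2 adenylyl cyclases and 6 subunits and inhibitors of PKA other than Prkacb. Among the receptor kinases and G proteins, the most abundant were the kinase Grk2, at 409 normalized TPM in sham controls and 397 in stroke mice, Grk6, at 255 and 254, Gnas, the gene of Gs alpha, at 279 and 291, and Gnai2, an inhibitory alpha subunit, at 311 and 275. The cyclases were Adcy7 at 64.4 and 71.8 and Adcy3 at 22.5 and 19.7. The PKA inhibitor gene Pkig was at 285 and 343, and Prkar1a, a regulatory subunit, at 135 and 114. Among the 8 A-kinase anchors, which tether PKA within the cell, 7 differences were positive, compared with 6466 of the 12590 tested genes, with a median of 0.20, none with an unadjusted p under 0.05, and Akap13 led at 329 and 409. Rapgef4 and Rapgef3, the Epac exchange factors that bind cAMP apart from PKA, were at 67.1 and 55.7 and at 6.23 and 8.54, and neither had an unadjusted p under 0.05.

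Of 6 phosphodiesterase genes besides Pde4b and Pde4d, 2 were higher in stroke mice at the unadjusted threshold, which 4.42% of all tested genes passed in that direction. Pde2a, a cGMP-stimulated enzyme that degrades cAMP, had a minimum of 14.8, a median of 22.7 and a maximum of 36.3 normalized TPM in sham controls and of 33.8, 39.6 and 149 in stroke mice. The difference was 1.09 (SE 0.35, unadjusted limma p 0.00805, adjusted p 0.716), and 0.76 without stroke mouse 5, which held the value of 149. Pde1b, a calmodulin-dependent enzyme, was at 13.9 ± 5.80 and 21.2 ± 8.33, with a difference of 0.60 (SE 0.28, unadjusted limma p 0.0477, adjusted p 0.791). Its unadjusted p lay between 0.0696 and 0.116 without any 1 of sham controls 1 to 4 and stroke mice 4 to 6, and the difference was 0.39 with the epithelial marker score as a covariate and 0.32 without sham controls 1 and 2. The most abundant of the family was Pde7a, at 143 and 140.

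**Figure D5:**
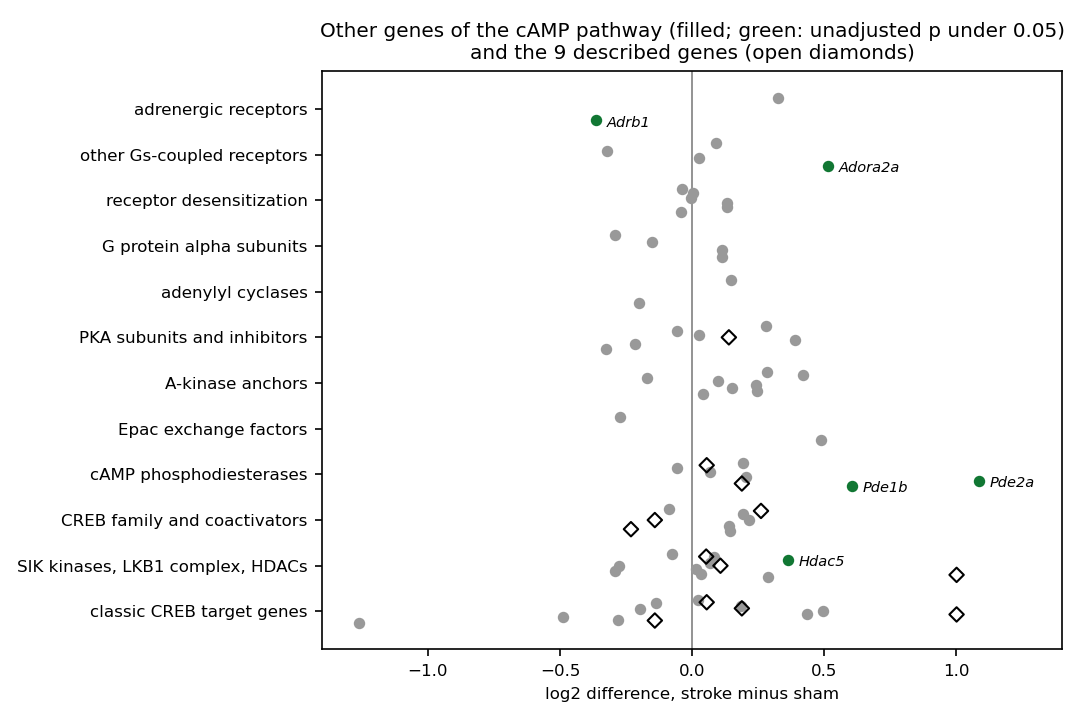
Difference between stroke mice and sham controls in log2(value + 0.5) for the 72 tested genes of the pathway lists, 1 row for each list. Each point is 1 gene, and the 9 members are open diamonds without names, drawn in each list that holds them. Of the other genes, those with an unadjusted p under 0.05 (limma) are named. Pde2a at 1.09 lies farthest to the right and Fos at -1.26 farthest to the left.

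Next to the SIKs in the pathway, Hdac5, a class IIa histone deacetylase that SIKs phosphorylate, was higher in stroke mice at the unadjusted threshold. Its lowest, median and highest levels were 38.8, 41.7 and 48.0 normalized TPM in sham controls and 40.2, 55.7 and 68.6 in stroke mice. The difference was 0.36 (SE 0.14, unadjusted limma p 0.0198, adjusted p 0.769), and only stroke mouse 2, at 40.2, lay within the range of the sham controls. With sample quality weights the difference was 0.24 and the unadjusted limma p 0.0707. Stk11, the gene of LKB1, the kinase that activates the SIKs, was at 64.3 and 78.2 with a difference of 0.29, or 0.15 without sham controls 1 and 2, and no unadjusted p under 0.05.

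The 5 other genes of the CREB family and its coactivators had a median difference of 0.14, none with an unadjusted p under 0.05, and the most abundant were the coactivator genes Crebbp, at 110.1 normalized TPM in sham controls and 125 in stroke mice, and Ep300, at 94.05 and 88.3. Of 9 classic CREB target genes besides the members, 4 differences were positive and 5 negative, with a median of -0.14, and none had an unadjusted p under 0.05. The most abundant, Junb, was at 42.4 normalized TPM in sham controls and 33.3 in stroke mice. The most negative, named after its value was seen, was the immediate early gene Fos, at 19.4 ± 12.7 and 12.4 ± 14.2 (SD, n = 6 each), with a difference of -1.26 (SE 0.74) and an unadjusted limma p of 0.111. It was -0.53 with the epithelial marker score as a covariate and -0.80 without sham controls 1 and 2.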

How the data were processed

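Total RNA of magnetically purified PP B cells was sequenced from 12 mice. The authors trimmed the reads with Trimmomatic 0.39, ran kallisto 0.48.0 on the Ensembl transcripts of release 102 and used sleuth 0.30.0 in R 4.1.2, per the methods and the submitters' processing notes, which name the build GRCm38. The deposited table gives each gene an expression signal called normalized TPM. The column totals ran from 559570 to 1404340, and for this reason the values were handled as a signal, not as plain TPM. No read counts were given, so the depth is unknown.

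From these, log2(value + 0.5) was computed. Genes that were below 1 in any mouse were left out, and limma 3.58.1 (R 4.3.3) was fitted to the rest, with Benjamini-Hochberg adjustment. For low genes, differences on this scale are too small. The p-values measure the spread between mice. Relations within groups were tested by all 518400 orders of the mice within groups. Data were also simulated with normal noise drawn independently for each gene and with 200 changed genes. An adjusted p under 0.05 was reached by 154 of 200 genes with a log2 change of 1.0 and by 4 of 200 with a change of 0.5. Variation that genes share within a mouse was not simulated, so these counts need not hold for the real mice.

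The members and lists were chosen with earlier results of these data known. Besides the members, the named genes are pathway genes with an unadjusted p under 0.05, the most abundant of the lists, receptors above 1 in all mice and the genes nearest to Sik1 by r. Some genes of this rule are given only in counts, and some are not reported here. Coordinates are those of GRCm38. The alternatives were other pseudocounts, filters, scalings, a replicate block, sample weights, an intensity trend, a marker covariate and leaving out mice.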

Additional observations from a re-analysis of the deposited data

Results flagged for a closer look

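Values of 38 groups of 6 mice were checked for a mouse that stands apart from the rest of its group, that is, whose gap to the nearest other mouse exceeds 0.625 of the range of the group (Dixon). Chance alone marks about 1 in 20 groups, and 3 were marked here. Pde2a was at 149 normalized TPM in stroke mouse 5, with the next stroke mouse at 44.8. Adrb1 was at 5.57 in the same mouse, with the next at 3.22. The share of Pde4b in the sum of Pde4b and Pde4d was 80.9% in sham control 5, with the next sham control at 86.4%. Stroke mouse 5 also had the lowest summed follicular B cell markers, at 412.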

How the results depend on the processing

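The log2 difference of Sik1 lay between 0.87 and 1.13 over all alternatives. With sample quality weights, the difference turned negative in Pde4b (-0.053), Pde4d (-0.072), Prkacb (-0.0059) and Sik3 (-0.016). With all mice scaled to the same total, the difference was 0.18 in Sik3 and -0.11 in Creb1. The order of the levels put Sik1 at place 6, and at place 7 when a stroke mouse was left out. The genes higher at an unadjusted p under 0.05, 557 in all, were 1418 without a filter on low values, 369 with a minimum of 5, 348 at the same total, 866 with sample quality weights and between 396 and 937 when 1 mouse was left out. The lower genes, 213, were 350, 69 and 703 without the filter, at the same total and with weights, 327 after quantile normalization, 131 with the epithelial covariate and 139 without sham controls 1 and 2, and between 144 and 1158 when 1 mouse was left out, with both highest counts without sham control 6. At an adjusted p under 0.05, 1 gene was called with a mean of at least 1 as the filter, and 0 or 1 when 1 mouse was left out (1 without sham control 1). Genes whose groups did not overlap, 55, numbered 85 without a filter, 31 at the same total, 172 without sham controls 1 and 2 and between 69 and 260 when 1 mouse was left out. Of the 63 pathway genes besides the members, 2 to 5 were higher when 1 mouse was left out, with 2 without sham control 1, stroke mouse 5 or stroke mouse 6. The 1 lower pathway gene became 0 with a pseudocount of 1, a minimum of 5, the same total, an intensity trend, the epithelial covariate or without sham controls 1 and 2, 4 without a filter and 2 with a mean of at least 1, and 0 to 6 when 1 mouse was left out, with 6 without sham control 6. Within groups, r of Sik1 with Sik2 was 0.55 at the same total, and r with Crtc2 was 0.65 at the same total, 0.023 under median-of-ratios scaling and 0.090 after quantile normalization. When 1 mouse was left out, r ranged from -0.042 to 0.52 for Crem (lowest without sham control 5), from -0.28 to 0.066 for Crtc2 (highest without sham control 6), from -0.12 to 0.49 for Pde4d (-0.12 without stroke mouse 5 and -0.022 without sham control 6) and from 0.52 to 0.74 for Pde4b, whose adjusted p was 0.0477 without stroke mouse 4 and between 0.0961 and 0.614 under the other alternatives. The unadjusted p was above 0.05 under 17 of 24 alternatives for Adrb1, 18 of 24 for Adora2a and 14 of 25 for Pde1b, and under none of 25 for Pde2a. Hdac5 had an unadjusted p of 0.0707 with sample quality weights. The epithelial covariate and leaving out sham controls 1 and 2 were chosen after seeing the data. The causes were not tested.

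The mice carry the numbers 1 to 6 in both groups, and the labels do not say what a number stands for. The mean correlation of deviations was 0.218 between a sham control and the stroke mouse of its number, with 4 of 6 pairs above 0.1, and 2 of 6 sham controls correlated best with the stroke mouse of their own number, so the pairing is not established. With the number as a block, 770 genes were higher, 404 lower and 0 had an adjusted p under 0.05, 6 pathway genes were higher and 2 lower, and the SE of Sik1 was 0.18. No sequencing depth was given, so no limit from counting can be set for low genes such as Adrb1.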
